A study of Homo sapiens with 18 samples.

Results

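GAS6 and the 3 receptors it binds, AXL, MERTK and TYRO3, were described in 786-O cells, a human clear cell kidney cancer line that has lost the VHL tumor suppressor. The genes were taken by symbol from the expression table, and all 4 had a row among its 13141 genes. GAS6 had been picked because its signal rose after both shRNAs, so its shRNA differences are given as a description with no test, while the receptors were not picked on their values. The experiment comprised 18 arrays in 6 groups of 3. VHL-/- cells and VHL+/+ cells, in which VHL had been put back, stably carried a scramble control shRNA (SCR), PBRM1 shRNA or KDM5C shRNA. All cells were otherwise untreated and grown in serum-containing medium. A single shRNA construct stood for each target. A number in the labels was read here as that of the array chip, by which chip 2 held the third replicate of every group and chip 1 the others. The labels do not say whether replicates came from separate cultures, so p-values measure only the spread between these arrays, which may be technical.

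GAS6 is a secreted protein that bridges phosphatidylserine on membranes to the TAM receptor tyrosine kinases TYRO3, AXL and MERTK. Its membrane-binding Gla domain works only after vitamin K-dependent carboxylation. Activated TAM receptors signal through PI3K and AKT, drive the uptake of dying cells, and dampen interferon and inflammatory signalling. Protein S, encoded by PROS1, is the other classical TAM ligand and acts on TYRO3 and MERTK. AXL is known as a hypoxia-responsive receptor in kidney cancer, where VHL loss leaves the hypoxia-inducible factors (HIF) undegraded.

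The promoters of GAS6 and AXL are shown because these genes moved with different arms of the experiment, GAS6 with the shRNAs and AXL with VHL. The 250 bases before the annotated start were taken from RefSeq (GRCh38.p14), 5′ to 3′ on the strand of the gene, with motif matches in capitals. The motifs searched on both strands were the HIF core, ACGTG or GCGTG (printed as CACGT or CACGC where it lies on the opposite strand), the interferon-stimulated response element core GAAANNGAA, and the gamma-activated site core TTCNNNGAA.
GAS6, chr13:113864077-113864326, minus strand: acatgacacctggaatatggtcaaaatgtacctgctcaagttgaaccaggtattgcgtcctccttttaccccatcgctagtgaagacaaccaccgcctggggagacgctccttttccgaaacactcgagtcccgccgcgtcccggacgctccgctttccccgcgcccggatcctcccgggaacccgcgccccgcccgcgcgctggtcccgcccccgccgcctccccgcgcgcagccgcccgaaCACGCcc
AXL, upstream start, chr19:41218973-41219222, plus strand: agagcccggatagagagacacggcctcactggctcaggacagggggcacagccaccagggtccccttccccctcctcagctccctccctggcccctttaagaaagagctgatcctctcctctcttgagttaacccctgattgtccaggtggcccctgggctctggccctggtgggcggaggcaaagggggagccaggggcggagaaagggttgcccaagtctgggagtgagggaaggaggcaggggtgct
AXL, downstream start, chr19:41226505-41226754, plus strand: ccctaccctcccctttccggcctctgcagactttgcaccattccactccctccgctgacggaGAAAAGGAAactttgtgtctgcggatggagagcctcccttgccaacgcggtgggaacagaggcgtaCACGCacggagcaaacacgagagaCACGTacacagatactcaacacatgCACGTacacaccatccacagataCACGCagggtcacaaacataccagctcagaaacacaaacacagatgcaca

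The GAS6 window was rich in GC (66.8%), with 31 CG pairs and 1 HIF core beginning 7 bases before the start. The AXL window at the upstream start held none of the motifs and 4 CG pairs. The AXL window at the downstream start held 4 HIF cores, 2 of them ACGTG and 2 GCGTG, and 1 GAAANNGAA match. At least 1 HIF core of either kind occurred in 43.2% of the 35116 windows of this length in the table, and GAAANNGAA in 6.88%. A window with a HIF core is thus common, and the share with 4 was not computed. The windows of PROS1, MERTK and TYRO3, not printed here, were searched too. TYRO3 held 1 HIF core at its downstream start and no motif at its upstream start. PROS1 held 1 TTCNNNGAA match, which occurred in 6.57% of windows, and MERTK held none of the motifs. All these matches describe letters, not binding. The array values do not tell the AXL starts apart.

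GAS6 had the same pattern in both VHL backgrounds, with low signal in SCR cells and higher signal with either shRNA. In VHL-/- cells the log2 signal of GAS6 was 7.52, 7.43 and 7.22 in the SCR arrays. It was 8.65, 8.73 and 8.64 with PBRM1 shRNA, and 8.71, 8.67 and 8.36 with KDM5C shRNA. Each of the 6 shRNA arrays stood above every SCR array. In VHL+/+ cells the SCR arrays read 7.62, 7.51 and 7.17. PBRM1 shRNA arrays read 8.77, 8.55 and 8.31, and KDM5C shRNA arrays 8.57, 8.87 and 8.27. Here too every shRNA array stood above every SCR array, and the array on chip 2 was the lowest of each of the 6 groups, by a small margin with PBRM1 shRNA in VHL-/- cells. In RNA from whole cultures, a change in all cells and a change in some of them cannot be told apart.

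The fitted GAS6 difference from SCR, with a term for the chip, was 1.28 on the log2 scale (SE 0.09, 2.43-fold) for PBRM1 shRNA and 1.19 (SE 0.09, 2.28-fold) for KDM5C shRNA in VHL-/- cells. In VHL+/+ cells it was 1.11 (SE 0.09, 2.15-fold) and 1.14 (SE 0.09, 2.20-fold), respectively. Among all 13141 genes these rises ranked 6, 9, 8 and 8, which restates the choice of the gene. Both shRNAs were set against the same SCR arrays within a background, so that the paired differences share their controls. The PBRM1 shRNA groups differed from the KDM5C shRNA groups by 0.09 in VHL-/- cells and by -0.03 in VHL+/+ cells. Ordered by mean, the groups ran from VHL-/- SCR (7.39 ± 0.15, SD, n = 3) and VHL+/+ SCR (7.44 ± 0.23) to VHL+/+ PBRM1 shRNA (8.54 ± 0.23), VHL+/+ KDM5C shRNA (8.57 ± 0.30), VHL-/- KDM5C shRNA (8.58 ± 0.19) and VHL-/- PBRM1 shRNA (8.67 ± 0.05). Neighbours in this order lay within their spread, except at the step from SCR to shRNA.

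VHL did not separate the GAS6 signal, a comparison that the choice of the gene did not use. Over the 9 VHL-/- arrays the lowest, median and highest values were 7.22, 8.64 and 8.73, and over the 9 VHL+/+ arrays 7.17, 8.31 and 8.87. The average VHL difference over the 3 shRNA conditions was -0.03 (SE 0.05, 95% confidence interval -0.15 to 0.08, limma adjusted p = 0.791). An exact two-sided permutation test on the 9 and 9 arrays gave p = 0.893. That test shuffled the arrays regardless of shRNA and chip. The GAS6 step between SCR and shRNA arrays within each 9 widened its spread, so it could hardly detect a VHL difference. The rise after PBRM1 shRNA was larger in VHL-/- than in VHL+/+ cells by 0.18 (SE 0.13), and that after KDM5C shRNA by 0.06 (SE 0.13), with no test since these values come from the same differences that picked the gene.

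**Figure D1:**
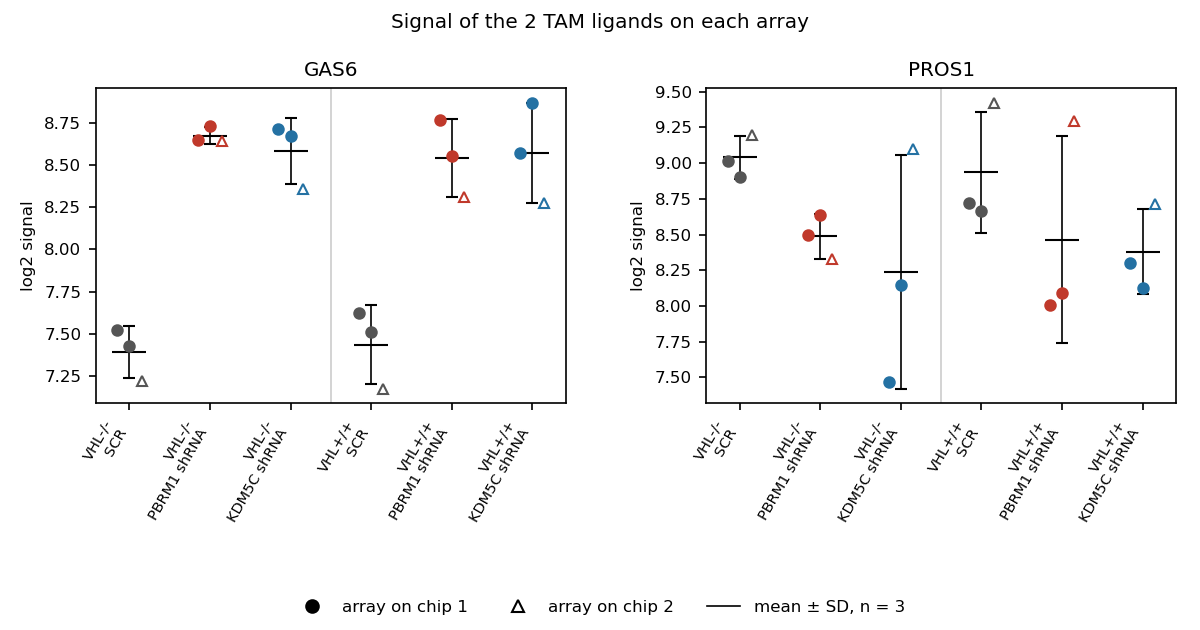
Log2 signal of GAS6 (left) and PROS1 (right) on each of the 18 arrays, by group; filled circles are arrays on chip 1, open triangles arrays on chip 2, bars the mean ± SD of 3 arrays. All 12 GAS6 values with an shRNA (8.27 to 8.87) lie above all 6 SCR values (7.17 to 7.62), whereas PROS1 values overlap between SCR and shRNA arrays except for PBRM1 shRNA in VHL-/- cells and are mostly higher on chip 2.

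PROS1, the other TAM ligand, had lower group means with each shRNA, although none of the 4 shRNA comparisons passed the test in the fit over all 18 arrays. In VHL-/- cells PROS1 read 9.01, 8.91 and 9.20 with SCR, 8.50, 8.64 and 8.33 with PBRM1 shRNA, and 7.47, 8.14 and 9.10 with KDM5C shRNA. In VHL+/+ cells it read 8.72, 8.66 and 9.42 with SCR, 8.01, 8.09 and 9.30 with PBRM1 shRNA, and 8.30, 8.13 and 8.71 with KDM5C shRNA. PBRM1 shRNA arrays in VHL-/- cells lay below all their SCR arrays, the other groups overlapped with theirs, replicates were far apart, and the chip 2 array was the highest in 5 of the 6 groups. The differences from SCR were -0.55 (SE 0.25, adjusted p = 0.249) and -0.80 (adjusted p = 0.0790) for PBRM1 and KDM5C shRNA in VHL-/- cells. In VHL+/+ cells they were -0.47 (adjusted p = 0.402) and -0.56 (adjusted p = 0.245). Fitted on the arrays of the comparison alone, PBRM1 shRNA in VHL-/- cells and KDM5C shRNA in VHL+/+ cells passed (limma adjusted p = 0.0149 and 0.0108). KDM5C shRNA in VHL-/- cells passed without replicate 3 of PBRM1 shRNA (0.0234) or of KDM5C shRNA (0.0265) in these cells, and its PROS1 difference was -1.15 on chip 1 and -0.10 on chip 2.

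When all 12 shRNA arrays were set against all 6 SCR arrays, a comparison added after the data had been seen, PROS1 fell by 0.60 on the log2 scale (SE 0.15, 95% confidence interval -0.92 to -0.27, limma adjusted p = 0.0136). In the same comparison 15.4% of all genes passed at adjusted p under 0.05. GAS6, picked for its rise, stood at 1.18 there, given as a description. The PROS1 call was lost without the chip term (adjusted p = 0.118), and PROS1 was higher on chip 2 than on chip 1 by 0.63 (adjusted p = 0.00678). Galectin-3 (LGALS3), a further reported MERTK ligand, differed from SCR by -0.08 to 0.04 over the 4 shRNA comparisons, none past the test. The remaining ligands listed, TUB and TULP1, had no row.

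AXL passed the test with neither shRNA and was lower with VHL. With SCR, PBRM1 shRNA and KDM5C shRNA in VHL-/- cells, the AXL arrays read 11.43, 11.48 and 11.25, then 11.31, 11.35 and 11.18, then 11.57, 11.43 and 11.12. In VHL+/+ cells they read 10.84, 11.13 and 10.72, then 11.02, 11.11 and 10.66, then 11.23, 11.15 and 10.45. The chip 2 array was the lowest of every group. VHL-/- and VHL+/+ arrays overlapped as deposited (11.12 to 11.57 and 10.45 to 11.23) but no longer once the chip difference of -0.36 (adjusted p = 9.38e-04) was removed.

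The average VHL difference of AXL was -0.42 (SE 0.06, 95% confidence interval -0.55 to -0.29, 0.746-fold, limma adjusted p = 2.24e-04), and an exact two-sided permutation test of 9 against 9 arrays without the chip term gave p = 3.70e-04. It was -0.49 in SCR cells (adjusted p = 0.0196), -0.43 in KDM5C shRNA cells (adjusted p = 0.0397) and -0.35 in PBRM1 shRNA cells, where it did not pass (adjusted p = 0.111). Without the chip term neither the SCR nor the KDM5C shRNA difference passed (adjusted p = 0.287 and 0.425), while the average did (0.0237). The SCR call was lost without SCR replicate 1 in VHL+/+ cells or SCR replicate 2 or 3 in VHL-/- cells, and the KDM5C shRNA call in 11 of the 18 fits that left out 1 array (adjusted p up to 0.118 and 0.200), whereas the average passed in all 18. The size of the fall stayed under the 1.5-fold mark. It was -0.35 on chip 1 alone and -0.57 on chip 2 alone, the latter with 1 array a group. The shRNA differences of AXL were -0.10 (adjusted p = 0.703) and -0.01 (adjusted p = 0.976) in VHL-/- cells for PBRM1 and KDM5C shRNA, and 0.04 (adjusted p = 0.926) and 0.05 (adjusted p = 0.866) in VHL+/+ cells. Over all shRNA arrays the 95% confidence interval of the AXL difference ran from -0.15 to 0.13.

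MERTK, the receptor best known from phagocytes and the retinal epithelium, was dim. Its mean signal stood at the 31.9th percentile of all genes, and detection calls were not used here. In VHL-/- cells it read 6.99, 7.08 and 7.11 with SCR, 7.03, 7.02 and 6.92 with PBRM1 shRNA, and 6.86, 6.85 and 7.03 with KDM5C shRNA. In VHL+/+ cells it read 7.07, 7.0 and 7.22, then 7.06, 7.09 and 7.18, then 7.13, 7.10 and 7.14. Within each background the groups overlapped. KDM5C shRNA in VHL-/- cells gave the lowest mean, at -0.15 from SCR (SE 0.07, adjusted p = 0.272), and the other shRNA differences lay between -0.07 and 0.03 (adjusted p = 0.659 to 0.943). The average VHL difference was 0.12 (SE 0.04) at an adjusted p of 0.05, which did not fall under the threshold, with an exact permutation p of 0.00494 for the 9 and 9 arrays. It passed without PBRM1 shRNA replicate 1 (adjusted p = 0.0441), PBRM1 shRNA replicate 2 (0.0498) or KDM5C shRNA replicate 3 (0.0396) in VHL-/- cells, or SCR replicate 2 in VHL+/+ cells (0.0426).

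TYRO3, the third receptor, was lower with VHL by a small margin. In VHL-/- cells it read 7.71, 7.57 and 7.71 with SCR, 7.66, 7.65 and 7.62 with PBRM1 shRNA, and 7.90, 7.87 and 7.37 with KDM5C shRNA. In VHL+/+ cells it read 7.49, 7.46 and 7.32, then 7.61, 7.46 and 7.24, then 7.40, 7.66 and 7.55. Within each background the groups overlapped, and the chip 2 array with KDM5C shRNA in VHL-/- cells stood apart from the other two of its group. The average VHL difference was -0.21 (SE 0.06, 0.866-fold, limma adjusted p = 0.0374), with an exact permutation p of 0.00880. The call did not survive without the chip term (adjusted p = 0.110) and was lost in 13 of the 18 fits that left out 1 array, whose adjusted p ran from 0.00476 without replicate 3 of KDM5C shRNA in VHL-/- cells to 0.0885 without replicate 3 of SCR in VHL-/- cells. It held without SCR replicate 2 in VHL-/- cells, and without PBRM1 shRNA replicate 1 or KDM5C shRNA replicate 2 or 3 in VHL+/+ cells. The shRNA differences of TYRO3 were -0.02 (adjusted p = 0.963) for PBRM1 shRNA and 0.05 (adjusted p = 0.891) for KDM5C shRNA in VHL-/- cells. They were 0.01 (adjusted p = 0.975) and 0.11 (adjusted p = 0.648) in VHL+/+ cells.

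**Figure D2:**
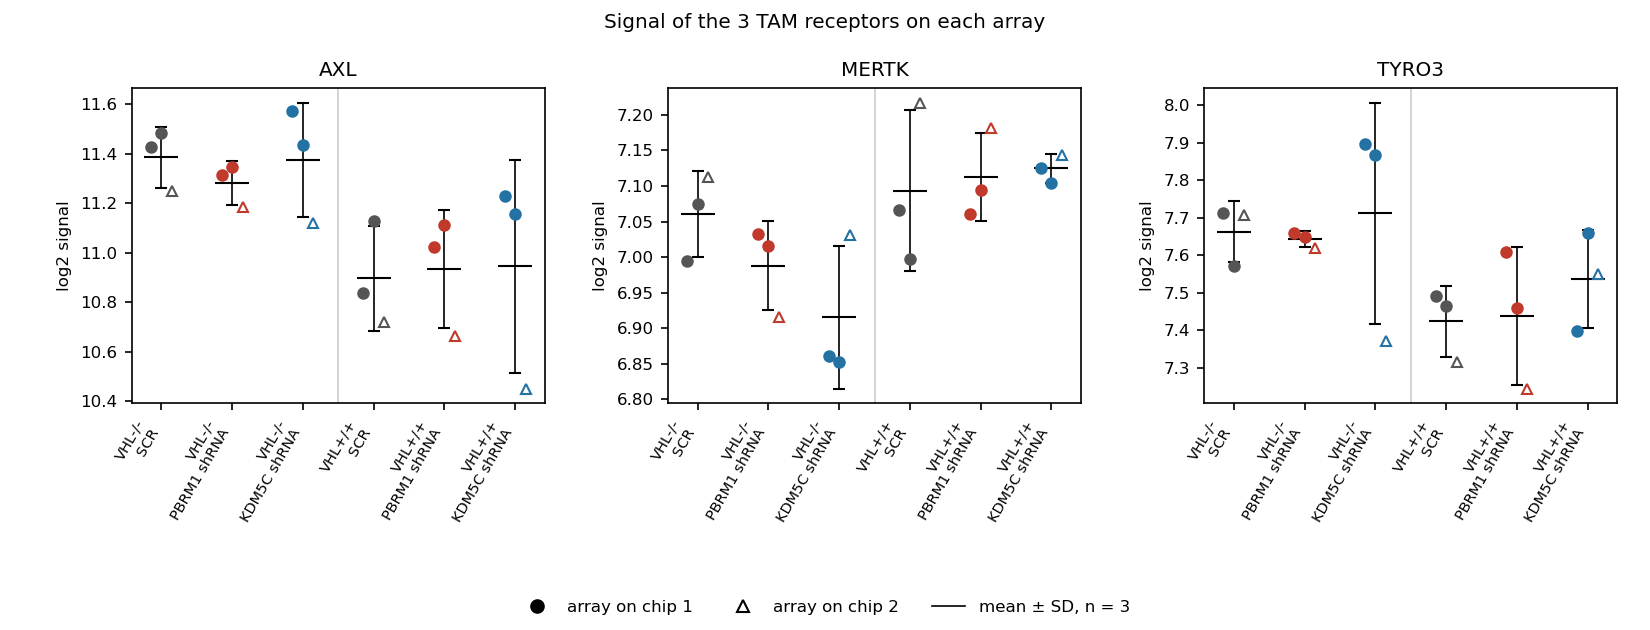
Log2 signal of AXL, MERTK and TYRO3 on each of the 18 arrays, by group, with symbols as for the ligands and a separate scale for each gene. AXL arrays lie lower in VHL+/+ (10.45 to 11.23) than in VHL-/- cells (11.12 to 11.57), and within a background the 3 shRNA conditions overlap for each receptor.

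Over the 3 receptors and the 4 shRNA comparisons, 0 of 12 tests passed in limma, and 1 had an unadjusted p under 0.05. The share of all genes that passed was 5.43% and 4.78% for PBRM1 and KDM5C shRNA in VHL-/- cells, and 2.49% and 4.19% in VHL+/+ cells, so a count of 0 of 3 lies near that background. For VHL, 2 of the 3 receptors passed, both lower, against 6.17% of all genes that passed lower (811 of 13141) and 12.2% in either direction. The difference of a receptor's shRNA effect between the VHL backgrounds passed in 0 of 6 limma tests, and 0 had an unadjusted p under 0.05. Over all genes these differences passed for 0, with 553 genes at an unadjusted p under 0.05 for PBRM1 shRNA and 1014 for KDM5C shRNA.

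**Figure D3:**
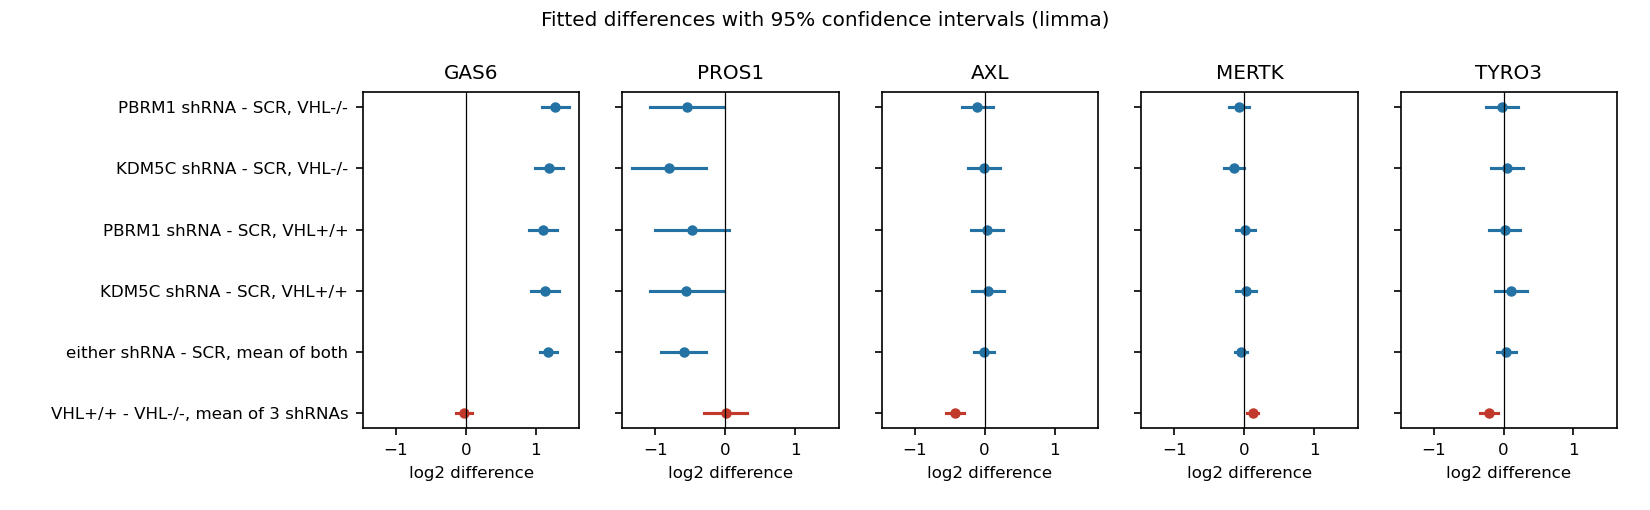
Fitted log2 differences of the ligands and receptors with 95% confidence intervals from limma on all 18 arrays, which carry no test for GAS6 in the shRNA rows; rows are the 4 shRNA comparisons, either shRNA against SCR and, in red, VHL+/+ against VHL-/- cells. GAS6 lies near 1.2 in each shRNA row and at -0.03 for VHL, while AXL lies near 0 in the shRNA rows and at -0.42 for VHL.

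The machinery that activates GAS6 was read from a list of 6 genes of the vitamin K cycle, all with a row. VKORC1L1, a vitamin K epoxide reductase, fell after each shRNA in each background, with the weakest call for PBRM1 shRNA in VHL+/+ cells. Its SCR arrays read 10.30, 10.41 and 10.25 in VHL-/- cells and 10.42, 10.34 and 10.07 in VHL+/+ cells. With PBRM1 shRNA it read 9.77, 9.96 and 9.88, and 10.05, 9.87 and 9.70, respectively. With KDM5C shRNA it read 9.95, 9.74 and 9.87, and 9.81, 9.85 and 9.60. The SCR arrays thus lay above all shRNA arrays in both backgrounds. How many of all genes separate in this way was not computed. The differences were -0.45 (adjusted p = 0.00699) and -0.46 (adjusted p = 0.00590) in VHL-/- cells, and -0.40 (adjusted p = 0.0236) and -0.52 (adjusted p = 0.00374) in VHL+/+ cells, each with SE 0.09 and none at 1.5-fold. The call for PBRM1 shRNA in VHL+/+ cells was lost without the chip term (adjusted p = 0.103), with trend and robust moderation (0.0508), and without SCR replicate 1 (0.125) or 2 (0.0691) or PBRM1 shRNA replicate 2 (0.120) or 3 (0.127). VKORC1, the main epoxide reductase, passed for VHL alone, at -0.18 (adjusted p = 0.0136). The carboxylase GGCX passed in none of these 5 comparisons and stood at 0.09 after PBRM1 shRNA in VHL-/- cells (adjusted p = 0.768).

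Of 12 other Gla proteins 6 had a row, and PRRG1, a transmembrane Gla protein, was the only member past the test, at 0.21 for VHL (adjusted p = 0.0295), a call lost in 9 of the 18 fits that left out 1 array. Of the proteases that shed AXL and MERTK, ADAM17 fell after KDM5C shRNA in VHL-/- cells by 0.40 (SE 0.08, adjusted p = 0.00998), and ADAM10 passed in none of the comparisons. The ADAM17 call was lost without the chip term (adjusted p = 0.151) and without SCR replicate 3 (0.0548). Among partner receptors, MET, the hepatocyte growth factor receptor, fell by 0.65 (SE 0.13, adjusted p = 0.0121) after KDM5C shRNA in VHL+/+ cells, a call lost without SCR replicate 1 (adjusted p = 0.0632) or KDM5C shRNA replicate 3 (0.0524), and EGFR was lower with VHL at -0.26 (adjusted p = 0.00340), with -0.16 on chip 1 and -0.47 on chip 2. In the signalling list, 15 of 18 genes had a row. The adaptor SHC1 rose by 0.44 (adjusted p = 0.00609) after PBRM1 shRNA in VHL-/- cells, and the ubiquitin ligase CBL fell by 0.38 (adjusted p = 0.0265) after KDM5C shRNA in VHL+/+ cells, a call lost without replicate 1 or 3 of either group (adjusted p up to 0.132).

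The interferon brake that TAM receptors engage had 9 of 10 genes in the table. TNFAIP3, an inhibitor of NF-kB signalling, read 8.13, 8.20 and 8.14 with SCR in VHL-/- cells, 7.47, 7.37 and 7.18 with PBRM1 shRNA, and 7.47, 7.64 and 7.25 with KDM5C shRNA. TNFAIP3 thus fell by 0.82 (adjusted p = 0.00434) and 0.71 (adjusted p = 0.0126), the latter lost without SCR replicate 2 (0.0567) or KDM5C shRNA replicate 3 (0.0646). In VHL+/+ cells its means were 7.61 with SCR, 7.22 with PBRM1 shRNA and 7.13 with KDM5C shRNA, and neither shRNA passed. TNFAIP3 was also lower with VHL, by 0.33 on average (adjusted p = 0.0213), with -0.49 on chip 1 and -0.017 on chip 2. The suppressors SOCS1 and SOCS3 and the receptor chains IFNAR1 and IFNAR2 passed in none of the 4 shRNA comparisons. SOCS1 and SOCS3 were dim, at the 25.3rd and 23.4th percentile of mean signal, which limits what their values can show.

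Phosphatidylserine, the membrane lipid that GAS6 binds, reaches the cell surface through scramblases, and 6 of 7 listed genes had a row. PLSCR1, an interferon-inducible phospholipid scramblase, fell by 0.78 in VHL-/- cells with either shRNA (adjusted p = 0.00105 for PBRM1 and 0.00120 for KDM5C). Its SCR arrays read 8.47, 8.46 and 8.05 there and its shRNA arrays 7.35 to 7.68. The falls were larger on chip 1 (-0.93 and -0.98) than on chip 2 (-0.49 and -0.38), where each group had 1 array. In VHL+/+ cells the PLSCR1 means were 7.72 with SCR, 7.39 with PBRM1 shRNA and 7.44 with KDM5C shRNA, and neither shRNA passed. PLSCR1 was also lower with VHL, by 0.29 on average (adjusted p = 0.0128), with -0.40 on chip 1 and -0.065 on chip 2. In SCR cells its VHL difference was -0.61 (adjusted p = 0.0110), a call lost without SCR replicate 1 of either background or SCR replicate 2 in VHL-/- cells. XKR8, the scramblase cleaved in apoptosis, fell by 0.32 (adjusted p = 0.0357) with KDM5C shRNA in VHL-/- cells and by 0.34 (adjusted p = 0.0355) with PBRM1 shRNA in VHL+/+ cells. Each XKR8 call was lost without any one of 5 of the 6 arrays compared, the exceptions being KDM5C shRNA replicate 2 and PBRM1 shRNA replicate 1. Of the other phosphatidylserine bridges and receptors, 10 of 15 were in the table. MFGE8, a bridge to integrin alpha-v receptors, was higher with VHL by 0.60 (SE 0.09, 1.51-fold, adjusted p = 2.01e-04), and ITGB5, an integrin subunit of such receptors, was lower by 0.35 (adjusted p = 2.80e-04). The MFGE8 difference was 0.68 with PBRM1 shRNA (adjusted p = 0.0202) and 0.74 with KDM5C shRNA (0.0118), and it did not pass in SCR cells. Without the chip term neither of these 2 passed (0.402 and 0.293), while the average did (0.0261). They were lost in 4 and 2 of the 18 fits that left out 1 array. Of the engulfment genes 9 of 10 had a row, and GULP1, an engulfment adaptor, fell by 0.50 (adjusted p = 0.0273) after KDM5C shRNA in VHL+/+ cells, a call lost without SCR replicate 1 or 2 or KDM5C shRNA replicate 2 or 3 (adjusted p up to 0.141). Genes of these lists that passed below 1.5-fold were named after their values were seen.

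Over all 67 pathway genes beside GAS6 and its receptors, the shRNA comparisons held 5, 6, 2 and 4 that passed. These are 7.46%, 8.96%, 2.99% and 5.97% of them, against 5.43%, 4.78%, 2.49% and 4.19% of all genes. At 1.5-fold the counts were 3, 2, 0 and 1 (4.48%, 2.99%, 0% and 1.49%), against 1.81%, 1.46%, 0.944% and 1.14% of all genes. For VHL 13 passed (19.4%, against 12.2% of all genes), 5 higher and 8 lower. Of the pathway genes 2 (2.99%) reached 1.5-fold for VHL, against 0.928% of all genes. The median difference of the list lay between -0.075 and -0.016 in the shRNA comparisons and was 0.0021 for VHL, where medians over all genes ran from -0.0020 to 0.0029. The signalling genes that passed for VHL were PIK3R2 (0.25) and the SRC-family kinase LYN (0.22), both higher, and the adaptor NCK2 (-0.21), and the engulfment genes were CRK (-0.18) and RHOG (-0.21). The CRK call was lost in 12 of the 18 fits that left out 1 array.

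**Figure D4:**
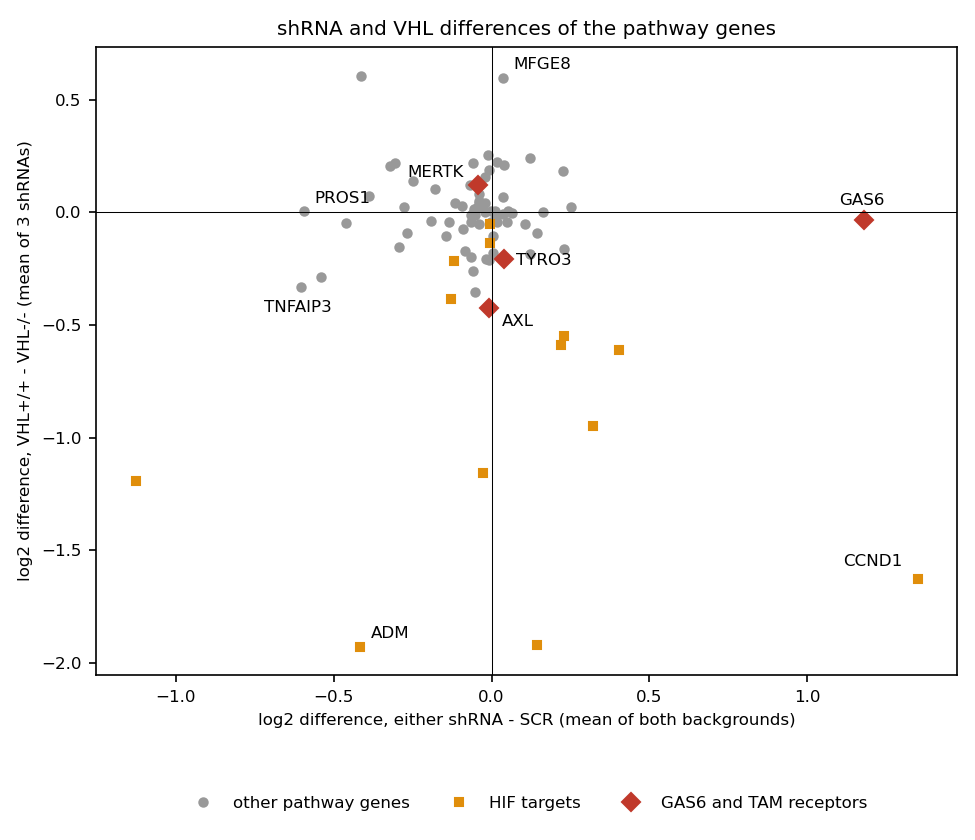
Log2 difference between either shRNA and SCR (horizontal) against that between VHL+/+ and VHL-/- cells (vertical) for GAS6 and its receptors (diamonds), 67 other pathway genes (circles) and 13 HIF targets (squares). GAS6 lies far to the right at 1.18 and near 0 for VHL, AXL lies at 0 for the shRNAs and at -0.42 for VHL, and PROS1 lies to the left at -0.60.

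HIF targets served as a check of the VHL labels and as a scale for AXL. Of the 13 with a row, 11 passed lower with VHL and none higher, with a median of -0.61. Of all genes 6.17% passed lower. Adrenomedullin (ADM) stood at -1.93, and the glucose transporter SLC2A1 at -1.16. The AXL difference of -0.42 was smaller than this median. CCND1, the cyclin D1 gene, stood at -1.63 for VHL and rose after each shRNA by 1.30 to 1.39, so that it passed for both arms, whereas GAS6 did not pass for VHL.

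The RNA signal of the targeted genes did not tell the groups apart, and the arrays do not measure protein. PBRM1 stood at the 40.4th percentile of mean signal. The authors describe western blots of 786-O cells in which shRNA had suppressed PBRM1 or KDM5C. PBRM1 signal differed from SCR by -0.06 (adjusted p = 0.864) in VHL-/- cells and by -0.15 (adjusted p = 0.639) in VHL+/+ cells with its own shRNA, KDM5C had no row, and VHL signal differed by 0.08 between the SCR groups (adjusted p = 0.766). Renal markers had 7 of 9 genes in the table, with VIM and CDH2 at the 99.7th and 98.2nd percentile of mean signal, and CA12, itself hypoxia-responsive, stood at -1.20 for VHL. Of 18 markers of leukocytes, endothelium, fibroblasts, Schwann cells and neurons 7 had a row, and none passed in an shRNA comparison. Of these 7, the lysosomal gene CD68 was the only member above the 25th percentile, and it was lower with VHL at -0.23.

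GAS6 lies near the end of chromosome 13, and 8 of its 16 nearest protein-coding neighbours had a row, matched through older symbols where needed. TFDP1, a partner of E2F factors, rose by 0.32, 0.37 and 0.30 (adjusted p = 0.0161, 0.00685 and 0.0402) for PBRM1 and KDM5C shRNA in VHL-/- cells and PBRM1 shRNA in VHL+/+ cells. The first of these calls was lost without SCR replicate 2 or PBRM1 shRNA replicate 3, the last in 11 of the 18 fits that left out 1 array, and all 3 without the chip term (adjusted p = 0.115, 0.0693 and 0.224). TMCO3 rose by 0.65 (adjusted p = 0.0307) after PBRM1 shRNA in VHL-/- cells, with 0.83 on chip 1 and 0.29 on chip 2, a call lost without any one of the 6 arrays compared except PBRM1 shRNA replicate 3. The other 6 neighbours passed in none of the shRNA comparisons, where 2.49% to 5.43% of all genes passed. The median neighbour differed by 0.07 to 0.09.

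The genes whose pattern over the 18 arrays was most like that of GAS6, after the chip difference was removed, were IGSF3 (r = 0.98), KTELC1 (r = 0.97), C2CD2 (r = 0.97), AKR7A2 (r = 0.96) and ARPC4 (r = 0.96). For AXL they were BHLHB2 (r = 0.90), KCNMA1 (r = 0.90), ITPR1 (r = 0.90), TMEM98 (r = 0.89) and FAM174B (r = 0.89). IQCK, DRAM1, CDH6, NIPA1 and OSGIN2 were nearest to MERTK (r = 0.82 to 0.89), and TFRC, CDCP1, FLJ12684, CENPQ and HYAL3 to TYRO3 (r = 0.86 to 0.88). None of these 4 genes was among the closest 5 of another. The arrays of a group share their treatment, so these coefficients describe likeness only.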

How the data were processed

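Total RNA of 786-O cells was hybridised to 18 Illumina HumanHT-12 V4 arrays, 3 for each of 6 groups. The labels give each array the number 1 or 2 under a tag spelled ChIP, which was read here as the number of the array chip, and each chip-adjusted value rests on that reading. Chip 1 then carried replicates 1 and 2 (12 arrays), and chip 2 replicate 3 (6 arrays). The deposited file holds 1 log2 intensity per gene and array. To make it, the authors exported signals from GenomeStudio, used limma for a background correction that keeps values positive, took log2, applied quantile normalization, filtered probes by detection (0.05) and took the mean over probes of a gene. Versions are not given in the sources used here, nor whether batch correction was applied to these values, and the chip term passed at adjusted p under 0.05 for 3130 of 13141 genes. The number of arrays limits the precision.

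Differences were fitted in limma 3.58.1 (R 4.3.3) over all genes and arrays, as 6 group means plus a chip term, with 11 residual degrees of freedom and empirical Bayes moderation. Adjusted p is Benjamini-Hochberg within each of 13 contrasts. A gene passed at adjusted p under 0.05 and was called if its fold change was also at least 1.5. Where the text says that a call was lost, the call is a pass at adjusted p under 0.05, whatever the fold change. Single values were compared by an exact two-sided permutation test, which shuffled arrays without regard to chip or shRNA. The fit was tested on simulated data. GAS6 and its receptors, the pathway lists and the tests were chosen with earlier results of these data known. The genes named are these 4, the shRNA targets, each list gene that was called or, where a list had none, its member with the largest difference, and the 5 genes most correlated with each of the 4. The alternatives tried were leaving out the chip term, a replicate block, fits on the arrays of a contrast, the dimmest 0.25 of genes left out, median centring, cyclic loess, trend and robust moderation, single chips, and each array left out. The comparison of either shRNA with SCR was added after seeing the data. Results of some genes that this rule would name are not reported here. Levels are not compared between genes. The share of all genes whose groups do not overlap was not computed, so any separation of arrays is given as a description.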

Additional observations from a re-analysis of the deposited data

How the results depend on the processing

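The GAS6 differences from SCR kept their sign under all alternatives, at 1.03 to 1.35 with single arrays left out. Same-numbered arrays were not treated as pairs, since the labels name nothing they share beyond the chip and not every same-number correlation of deviations was above 0.1 (-0.17 to 0.72). As a hint from the data, 14 of 18 arrays were closest to an array of their own number. A replicate block used instead of the chip term gave -0.42 for AXL and VHL (adjusted p = 3.98e-04). It left the called counts over all genes at 233 against 238 for PBRM1 shRNA in VHL-/- cells. In the shRNA and VHL comparisons the named genes gave 64 calls at adjusted p under 0.05, whatever the fold change. The block, which contains the chip term, lost none of them. Without the chip term 26 of these calls did not pass, among them the VHL calls of VKORC1 (adjusted p = 0.193), ITGB5 (0.0579), PIK3R2 (0.184) and CD68 (0.267) and the shRNA calls of CBL (0.144), XKR8 (0.0585 and 0.0563), GULP1 (0.0527) and TMCO3 (0.190). Measured on chip 2 alone, with 1 array a group, PBRM1 shRNA in VHL-/- cells gave 1.42 for GAS6 and -0.20 for MERTK, KDM5C shRNA in VHL+/+ cells gave -0.27 for AXL (0.21 on chip 1) and -0.073 for MERTK, KDM5C shRNA in VHL-/- cells gave -0.34 for TYRO3 (0.24 on chip 1), and VHL gave -0.16 for GAS6 and -0.57 for AXL. The VHL difference of MERTK passed with median centring, cyclic loess and trend and robust moderation (0.12 each), and that of TYRO3 did not pass without the chip term (-0.21).

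With single arrays left out, the VHL difference was -0.066 to 0.0024 for GAS6, 0.098 to 0.14 for MERTK and -0.25 to -0.17 for TYRO3. No shRNA difference of a receptor passed, and most changed sign around 0. Those that kept their sign in VHL-/- cells were AXL with PBRM1 shRNA (-0.19 to -0.044) and MERTK with KDM5C shRNA (-0.18 to -0.12). In VHL+/+ cells TYRO3 with KDM5C shRNA also did (0.043 to 0.21). The differences that changed sign in VHL-/- cells ran from -0.052 to 0.049 for AXL with KDM5C shRNA and from -0.11 to 0.00092 for MERTK with PBRM1 shRNA. For TYRO3 they ran from -0.095 to 0.067 with PBRM1 shRNA and from -0.026 to 0.19 with KDM5C shRNA. In VHL+/+ cells the ranges were -0.057 to 0.097 (AXL) and -0.018 to 0.062 (MERTK) and -0.049 to 0.069 (TYRO3) with PBRM1 shRNA, and -0.045 to 0.20 (AXL) and -0.0058 to 0.074 (MERTK) with KDM5C shRNA. For either shRNA AXL ran from -0.054 to 0.031. The effects in VHL-/- minus VHL+/+ cells ran from -0.21 to 0.034 for AXL and -0.16 to 0.081 for TYRO3 with KDM5C shRNA, and from -0.11 to 0.054 for TYRO3 with PBRM1 shRNA.

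Among the 67 pathway genes, adjusted p alone gave 5, 6, 2 and 4 genes in the shRNA comparisons and 13 for VHL, and a 2-fold threshold gave 0 in each, where 1.5-fold gave 3, 2, 0, 1 and 2. Apart from the fold thresholds, which differ by construction, the cause of these changes was not tested. The dim signal of MERTK limits what its values can show.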
